A study of Mus musculus with 12 samples.

Results

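Ascorbic acid (AA) and 2i were compared directly in mouse partially reprogrammed cells (pre-iPSCs), using the 6 libraries of the 2 single treatments among the 12 RNA-seq libraries of the series. The members were the 3 libraries labelled AA (RepA_AA, RepB_AA and RepC_AA) and the 3 labelled 2i (RepA_2i, RepB_2i and RepC_2i), and no measured value entered the choice. AA cells had received 50 µg/ml ascorbic acid for 48 h. 2i cells had received 1 µM MEK inhibitor (PD0325901) and 3 µM GSK inhibitor (CHIR99021) for the same 48 h. The other 6 libraries were 3 given the solvent DMSO and 3 given AA+2i at the same doses. They entered here as levels beside the contrast, and in the estimates of the spread and of replicate effects. They also counted in the filter on low counts and in the scaling of the libraries. All 12 came from a clonal line derived from mouse embryonic fibroblasts that carry a Nanog-GFP reporter and retroviral Oct4, Sox2, c-Myc and Klf4. The line was kept on irradiated feeders in serum-containing ESC medium, and treated without the feeder layer. Because it is 1 clone, the 3 replicates of a treatment are repeats within one cell line. Reads from the retroviral copies of Pou5f1 (Oct4), Sox2, Klf4 and Myc cannot be told apart from those of the endogenous genes.

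Pre-iPSCs are colonies that resemble ESCs but have stalled before the stable pluripotency network is switched on. Ascorbic acid is a cofactor of iron-dependent and 2-oxoglutarate-dependent dioxygenases, among them the Tet enzymes that oxidise 5-methylcytosine on DNA and the JmjC enzymes that remove methyl groups from histones. The MEK inhibitor in 2i blocks activation of ERK, the kinase that carries FGF and serum signals to the nucleus. The GSK inhibitor stops the destruction of β-catenin, so that genes controlled by Wnt signalling through TCF/LEF factors are released from repression. The contrast asks how the transcriptome under a chromatin cofactor differs from that under these signalling inhibitors, with no shared reference in between.

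The estimated (expected) read counts over genes totalled between 16989529 and 54392719 in the 6 libraries, with AA replicate B the deepest and 2i replicate C the shallowest. Between 14862 and 15821 of 20325 genes had counts in a library. The cells carried the markers of pre-iPSCs, with Epcam at 60.5 to 228 TPM (transcripts scaled to a fixed sum in each library) and Cdh1 at 46.3 to 101 TPM, except that Fut4 stayed at or below 0.10 TPM in all 6. The 10 fibroblast or feeder markers summed to 13.3 to 22.6 TPM with AA and 11.9 to 14.6 TPM with 2i, of which Thy1 made up much of the AA side. Primitive endoderm markers summed to at most 3.18 TPM in each of the 6 libraries, with Ttr at 0, and trophoblast markers to at most 8.46 TPM, with Tpbpa at 0.

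AA and 2i left the cells with different transcriptomes. Of 13400 genes tested, 1319 were higher with AA (9.84%) and 945 were higher with 2i (7.05%), together 16.9% at an adjusted p below 0.05 (edgeR quasi-likelihood test with the replicate letter A, B or C as a block). Among the AA genes 881 differed at least 2-fold, and among the 2i genes 610 did. The median size of a called difference was 1.36 on the log2 scale for genes higher with AA and 1.29 for genes higher with 2i. All 3 letters pointed the same way in 1316 of the 1319 and in 945 of the 945. A test with the letter as block favours such genes, so this is no separate support. Among the 11136 genes not called, 3135 also had 1 direction in all letters. The TPM of the 2 groups did not overlap in 1197 of the 1319 and 724 of the 945. Over all tested genes the groups were apart with AA higher in 17.4% and with 2i higher in 7.66%. Overlap was judged on TPM without the scaling factors of the test. In a fit to log2(TPM + 1) the median difference of all genes was 0.104, beside -0.029 in the test. Without the letter block 788 (5.88%) were higher with AA and 478 (3.57%) with 2i, and 787 and 478 of these were among the genes above. Leaving out a single library gave 992 and 657 without AA replicate A, 972 and 590 without AA replicate B, 830 and 528 without AA replicate C, 835 and 532 without 2i replicate A, 762 and 570 without 2i replicate B, and 806 and 550 without 2i replicate C. Leaving out every library of letter C left 282 and 200. In bulk RNA, a lower value can stem from fewer cells of a type or from less RNA per cell, and these cannot be told apart here.

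**Figure D1:**
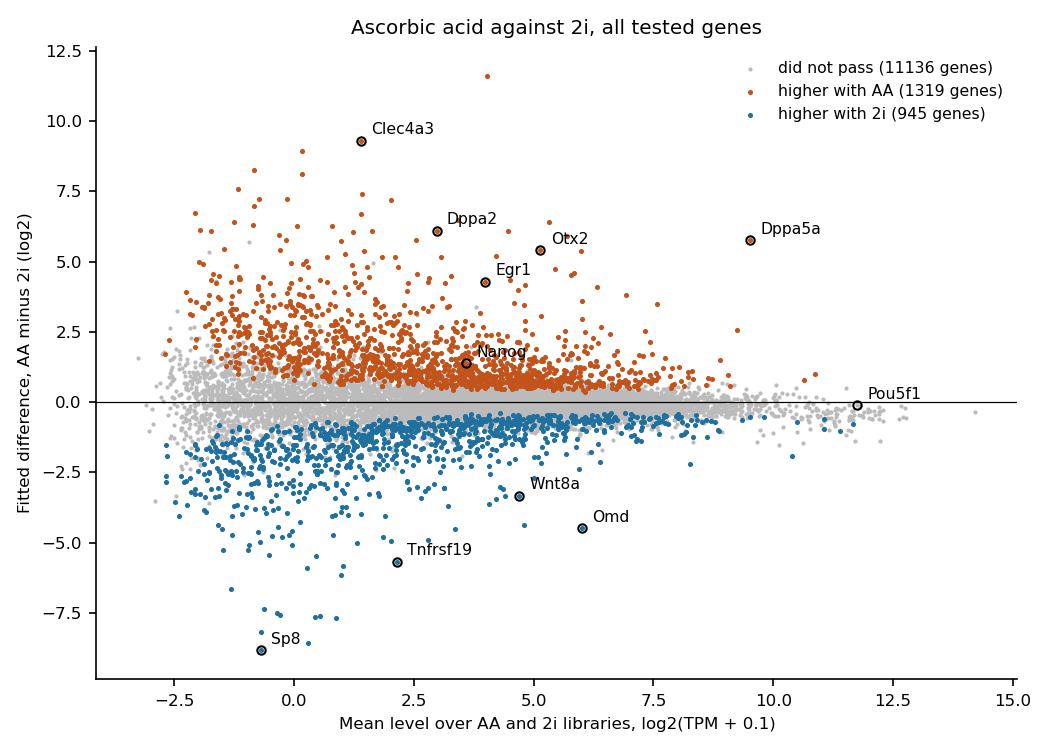
Fitted AA minus 2i difference (log2, y axis) of each of the 13400 tested genes against its mean level over the 6 libraries (log2 of TPM plus 0.1, x axis). Orange points (1319) passed with AA higher and blue points (945) with 2i higher. Dppa5a stands out as an abundant gene far above 0, and Pou5f1 lies at 0.

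The clearest block on the AA side was the Dppa and early embryo genes, which are active in germ cells, oocytes and the pre-implantation embryo. Of 11 members tested, 7 were higher with AA and none with 2i, 63.6% beside 16.9% of all genes. The median difference of the members was 3.54 on the log2 scale against -0.03 over all genes tested. The study picked several of these genes from the same libraries, so the list is not independent evidence of its direction. Dppa5a, an RNA-binding protein of pluripotent cells (chromosome 9, 78214859 to 78215984, mm9), stood at 1419, 1232 and 1665 TPM in AA replicates A, B and C and at 26.2, 19.08 and 25.04 TPM in the 2i replicates. Each AA library was far above each 2i library. The difference was 5.77 ± 0.29 (SE) on the log2 scale (edgeR, adjusted p = 9.471e-06).

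Dppa2 and Dppa4 are neighbours on chromosome 16 that encode SAP-domain chromatin proteins. Dppa2 was at 16.2, 11.6 and 18.1 TPM with AA and at 0.25, 0.17 and 0.16 TPM with 2i (6.10 ± 0.34, adjusted p = 1.326e-05). Dppa4 was at 3.93, 4.17 and 8.09 TPM against 0.19, 0.060 and 0.27 TPM (4.80 ± 0.41, adjusted p = 7.14e-05). Both were barely detected with 2i. Gdf3, a TGF-beta family ligand of pluripotent cells, reached 29.9, 45.1 and 58.3 TPM against 3.19, 3.20 and 3.52 TPM (3.54 ± 0.22). Ooep, a maternal-effect protein of the oocyte, reached 112, 95.2 and 152 TPM against 8.70, 8.62 and 8.58 TPM (3.59 ± 0.30). Ooep lies beside Dppa5a on chromosome 9, starting at 78223916. Tex19.1, which restrains transposable elements in germ cells, averaged 16.2 TPM with AA and 0.40 TPM with 2i (5.16 ± 0.37). The seventh gene, Dppa3, a maternal protein that protects DNA methylation, was near the detection limit with 0.80, 0.92 and 3.20 TPM against 0.12, 0.20 and 0.53 TPM, and it did not pass without the letter block (adjusted p = 0.103, with 0.00139 to 0.481 over the 20 alternative settings that tested it). Apobec1, Tdh, L1td1 and Dppa1 did not pass.

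In DMSO and AA+2i these genes took up different places. For 6 of the 7 the DMSO level was nearer to 2i than to AA, and for 7 of 7 the AA+2i level was nearer to AA. Dppa5a, for example, averaged 53.2 TPM in DMSO and 674 TPM in AA+2i.

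The core and naive pluripotency factors did not move as a block. Of 17 tested, 8 were higher with AA and 3 with 2i, together 64.7% beside 16.9% of all genes. The median difference was 0.25 on the log2 scale. Zfp42 (Rex1), a zinc-finger marker of the naive state, was at 12.5, 14.7 and 20.4 TPM with AA and at 0.70, 1.16 and 1.38 TPM with 2i (3.71 ± 0.21, adjusted p = 1.4e-05). Nanog, the homeobox factor whose activation marks entry into pluripotency, was at 19.6, 16.8 and 17.1 TPM with AA and at 6.92, 6.37 and 4.96 TPM with 2i (1.38 ± 0.32, adjusted p = 0.0148). The groups did not overlap for either gene. In AA+2i, Nanog averaged 36.6 TPM, above both single treatments, while Zfp42 averaged 6.71 TPM, between them. Fgf4, the autocrine ligand that feeds the ERK pathway in ESCs, averaged 57.7 TPM with AA and 21.4 TPM with 2i (1.28 ± 0.14). Prdm14, a repressor that guards the naive state, was called but scarce, at 0.54 TPM against 0.043 TPM.

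Esrrb, an orphan nuclear receptor of the naive network, was close to silent under both treatments. Its values were 0.37, 0.47 and 1.22 TPM with AA and 0.18, 0.17 and 0.29 TPM with 2i, against a mean of 2.53 TPM in AA+2i. The difference of 1.44 ± 0.34 passed with the letter block (adjusted p = 0.0176) and not without it (0.103, with 0.0107 to 0.496 over 22 settings). Utf1, a chromatin-bound factor of early embryonic cells, was at 0.18, 2.63 and 14.8 TPM with AA and at 0, 0 and 0.18 TPM with 2i. AA replicate A overlapped with 2i replicate C, and without the block Utf1 missed the threshold (adjusted p = 0.0557, with 0.000219 to 0.435 over 18 settings).

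The 3 factors on the 2i side were Tcfcp2l1, Tbx3 and Nr0b1. Tcfcp2l1, a transcription factor of the naive state, was at 49.0, 31.8 and 25.9 TPM with 2i and at 22.1, 13.1 and 13.0 TPM with AA (-1.30 ± 0.19, adjusted p = 0.00123). It averaged 8.98 TPM in DMSO and 53.6 TPM in AA+2i, so both single treatments lay above DMSO in their means. Tbx3, a T-box factor that sustains Nanog, was low throughout, with a mean of 0.83 TPM with 2i and 0.18 TPM with AA, and did not pass without the block (0.0918, with 2.04e-06 to 0.297 over 22 settings). Nr0b1, an orphan receptor expressed in ESCs, averaged 23.7 TPM with 2i and 13.4 TPM with AA. It did not pass without the block either, nor with a correction for GC content beside the block (adjusted p = 0.0512, edgeR). Pou5f1 (-0.12), Sox2 (-0.06), Klf4 (-0.40) and Klf2 (-0.82), in log2 units, did not pass, and their groups overlapped. For Pou5f1, Sox2 and Klf4 this sums endogenous and retroviral reads, and the sign of their differences changed with the settings.

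**Figure D2:**
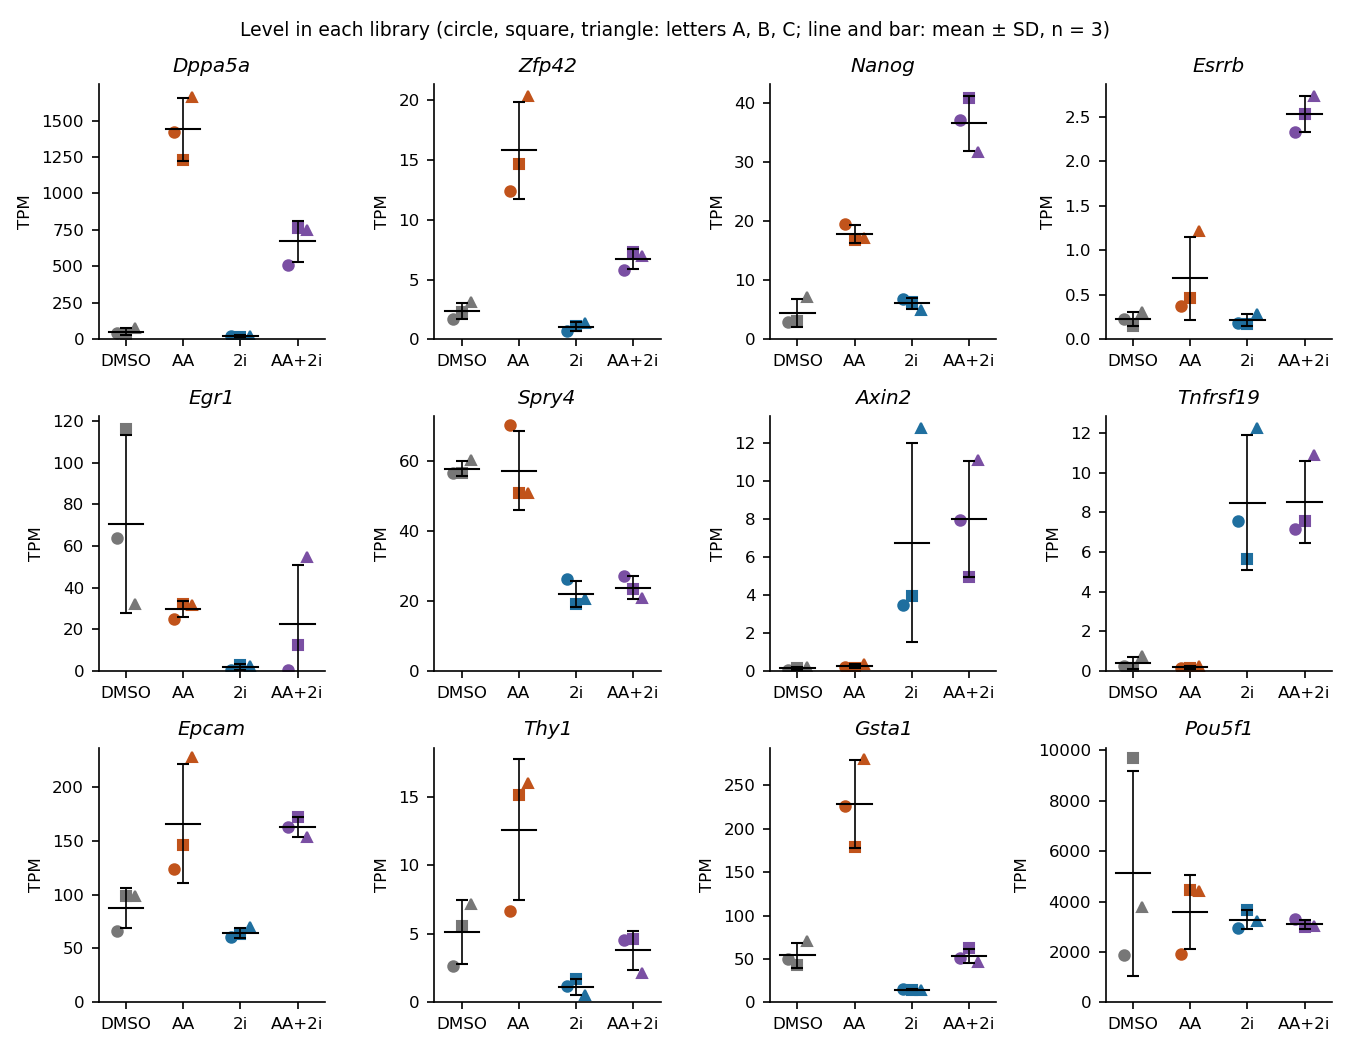
TPM (y axis, linear from 0) of 12 genes in the 12 libraries by treatment (x axis), with 1 point a library, the symbol giving the letter, and the mean ± SD over 3 libraries in black. Dppa5a, Zfp42 and Gsta1 are high with AA and low with 2i, Axin2 and Tnfrsf19 are the reverse, and Pou5f1 overlaps between AA and 2i.

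Of 20 tested genes that respond to ERK or feed back on it, 11 were higher with AA and none with 2i. That was 55.0% beside 16.9% of all genes, and the median difference was 0.89 on the log2 scale. Without the block 6 passed, and the other 9 members did not pass in either fit. Dusp6, the phosphatase that switches ERK off and is itself induced by ERK, was at 75.2, 58.0 and 59.9 TPM with AA and at 7.14, 6.68 and 6.85 TPM with 2i (3.05 ± 0.17, adjusted p = 1.38e-05). The 2i replicates were nearly equal, and each lay well under each AA value. Spry4, an inhibitor of receptor tyrosine kinase signalling, was at 70.3, 50.8 and 50.8 TPM against 26.3, 19.0 and 20.6 TPM (1.22 ± 0.12, adjusted p = 0.000198). The ETS factor Etv1 averaged 45.6 TPM against 10.9 TPM (1.89 ± 0.16), and Etv5, the one with the highest TPM of those called, 400.3 TPM against 194 TPM (0.90 on the log2 scale). Spry1, Spry2, Spred1, Spred2, Dusp4 and Etv4 completed the called members besides Egr1. Spry2, Spred1, Spred2 and Etv4 did not pass without the block.

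Egr1, the immediate early zinc-finger factor, showed a large but unsteady difference. The study had picked Egr1 from the same libraries as its most downregulated gene with 2i. It was at 25.2, 32.1 and 31.7 TPM with AA and at 0.22, 2.72 and 2.32 TPM with 2i, so the groups were far apart. The difference of 4.29 ± 1.25 passed narrowly with the block (adjusted p = 0.0439) and not without it (0.103, with 0.00207 to 0.587 over 22 settings). Its spread in the other conditions was wide, with 70.7 ± 42.7 TPM in DMSO and 22.6 ± 28.6 TPM in AA+2i (SD, n = 3). Fos and Fosb had differences of 2.05 and 1.91 that did not pass. Myc, which sums retroviral and endogenous reads, was at 0.05.

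For 11 of 11 called ERK genes the DMSO level was nearer to AA than to 2i, and for 10 of 11 the AA+2i level was nearer to 2i. Dusp6 averaged 62.5 TPM in DMSO against 64.3 TPM with AA, and 6.35 TPM in AA+2i against 6.89 TPM with 2i. This is the opposite placement to that of the Dppa genes, although both groups stood on the AA side of the contrast.

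Wnt target and feedback genes stood on the other side of the contrast. Of 17 tested, 9 were higher with 2i and 1 with AA, with a median difference of -1.16 on the log2 scale. Axin2, a scaffold of the β-catenin destruction complex that Wnt signalling induces as feedback (chromosome 11, 108781663 to 108812097, mm9), was at 3.50, 3.97 and 12.8 TPM with 2i and at 0.22, 0.15 and 0.38 TPM with AA (-4.81 ± 0.34, adjusted p = 3.319e-05). Tnfrsf19 (Troy), a receptor of the TNF family that marks Wnt-responsive stem cells, was at 7.57, 5.64 and 12.3 TPM against 0.15, 0.14 and 0.26 TPM (-5.68 ± 0.29, adjusted p = 9.471e-06). In both, letter C gave the highest 2i value and the groups were far apart. Nkd1, a feedback antagonist that binds Dishevelled, averaged 1.497 TPM with 2i and 0.10 TPM with AA (-3.96 ± 0.42). Sp8, a zinc-finger factor, had 30 to 65 counts in the 2i libraries and 0 in all AA libraries, which puts it at least 83.1-fold higher with 2i against a floor of 3 counts over the AA group. Lef1, Dkk1 and Bambi passed only with the block. Apcdd1, a Wnt inhibitor at the cell surface, was the one member on the AA side, with a mean of 101 TPM against 45.3 TPM, and passed with the block only too. Ccnd1, often listed as a Wnt target, did not pass (0.34).

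Sp5, a zinc-finger repressor directly downstream of Wnt, was at 1.2, 1.57 and 6.93 TPM with 2i and at 0.10, 0.15 and 0.27 TPM with AA (-4.01 ± 0.54, adjusted p = 0.00089). It is named here for its promoter, after its values were seen. TCF/LEF factors bind words that begin CTTTG, and the promoter windows in RefSeq (GRCm38.p6, 250 bases before to 50 after a transcription start) were searched on both strands for the word CTTTGAA, for its variant CTTTGAT with another last base, for the related word CTTTGTA and for its variant CTTTGTT. Of 32851 windows 16.9% held at least 1 of these words, and of the 12229 windows of tested genes 11.6% did. Of the 15 windows of the Wnt genes called on the 2i side 5 did (33.3%). Over genes with a window, 5 of 8 such Wnt genes had a word in any window, against 13.8% of 9539 tested genes, 16.6% of 668 genes higher with 2i and 16.2% of 888 genes higher with AA. Windows with no word included the 1 of Axin2. Lef1, Sp8 and Tnfrsf19 had a word in only 1 of several windows. Genes with more windows have more places for a word, and the any-window shares were not adjusted for this. The windows of Sp5 and of an alternative start of Tnfrsf19 are shown with the words in capitals, since the first has 2 of them and the second belongs to the gene with the smallest adjusted p in the list.
Sp5: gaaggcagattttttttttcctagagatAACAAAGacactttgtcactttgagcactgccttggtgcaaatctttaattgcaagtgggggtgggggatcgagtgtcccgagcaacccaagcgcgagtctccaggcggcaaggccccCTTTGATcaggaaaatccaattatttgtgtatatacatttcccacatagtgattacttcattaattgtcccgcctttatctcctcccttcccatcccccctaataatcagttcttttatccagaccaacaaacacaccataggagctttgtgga
Tnfrsf19: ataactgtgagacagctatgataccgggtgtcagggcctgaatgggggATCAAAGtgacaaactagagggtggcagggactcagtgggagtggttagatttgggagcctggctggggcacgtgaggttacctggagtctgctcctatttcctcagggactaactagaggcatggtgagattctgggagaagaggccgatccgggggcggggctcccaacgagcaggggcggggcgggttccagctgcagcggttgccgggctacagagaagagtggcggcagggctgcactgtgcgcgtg
In the Sp5 window (chr2:70474673-70474972, plus strand) the words start 222 and 104 bases before the transcription start, 1 on each strand. In the Tnfrsf19 window (chr14:61037938-61038237, minus strand) the word starts 202 bases before the start. These are matches of letters and no binding was measured.

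For 9 of 9 Wnt genes called on the 2i side, DMSO was nearer to AA and AA+2i was nearer to 2i. Axin2 averaged 0.14 TPM in DMSO and 8.01 TPM in AA+2i, and Tnfrsf19 0.39 TPM and 8.53 TPM.

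The primitive streak and posterior genes, several of which Wnt signalling induces in the embryo, were split. Of 7 tested, 4 were higher with 2i and 2 with AA, together 85.7% beside 16.9% of all genes. The other 10 listed genes, among them T and Mixl1, had too few counts to test. Wnt8a, a streak-expressed Wnt ligand, was at 36.0, 42.0 and 61.6 TPM with 2i and at 3.21, 5.62 and 6.88 TPM with AA (-3.33 ± 0.27, adjusted p = 6.125e-05). Nkx1-2, a homeobox gene of the posterior axis, was at 2.48, 1.52 and 6.41 TPM with 2i and at 0, 0 and 0.040 TPM with AA (-7.70 ± 0.55). With almost no AA reads, the size of this difference is uncertain. Wnt3 and Cdx1 were called at mean levels of 1.16 and 0.70 TPM with 2i, and not without the block. Evx1, a homeobox gene of the streak, went the other way, at 2.25, 3.71 and 7.90 TPM with AA and 0.070, 0.19 and 0.50 TPM with 2i (4.08 ± 0.32), as did Eomes at 2.03 TPM against 1.03 TPM. All of the called streak genes but Wnt8a were at low levels.

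**Figure D3:**
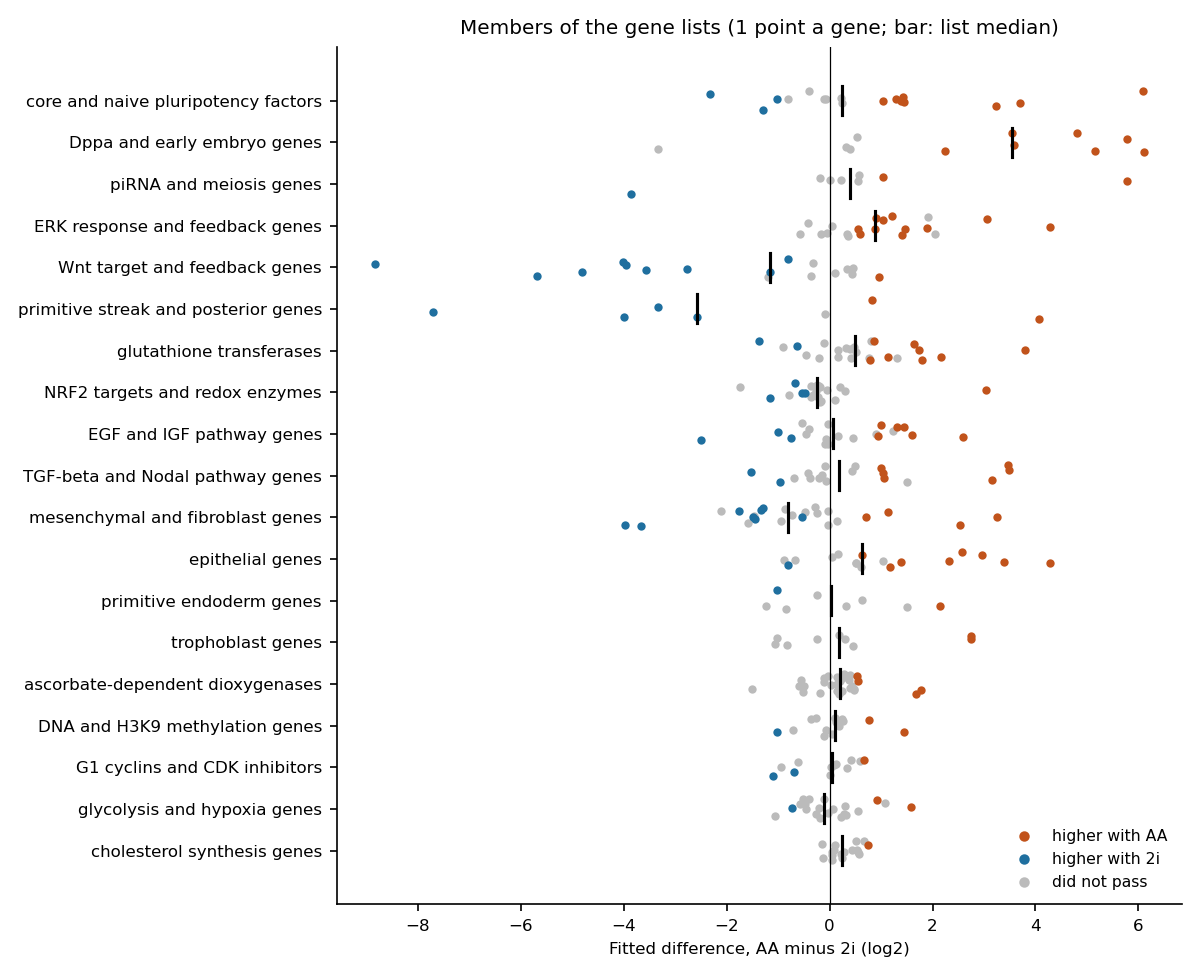
AA minus 2i difference (log2, x axis) of each tested member of 19 gene lists (y axis), coloured by whether it passed, with the list median as a black bar. The Dppa list (median 3.54) and the ERK list (0.89) lie to the right, the Wnt list (-1.16) and the streak list (-2.58) to the left, and most dioxygenase and cholesterol synthesis genes sit near 0.

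Of 17 epithelial genes tested, 8 were higher with AA and 1 with 2i, together 52.9% beside 16.9% of all genes. The median difference was 0.63 on the log2 scale. Without the block 6 were higher with AA and none with 2i. Epcam, an epithelial adhesion molecule, was at 124, 146 and 228 TPM with AA and at 60.5, 63.5 and 69.8 TPM with 2i (1.17 ± 0.16, adjusted p = 0.00105). Esrp1, the splicing factor of epithelial isoforms, was at 69.9, 50.6 and 56.2 TPM against 24.0, 19.6 and 17.1 TPM (1.38 ± 0.18, adjusted p = 0.000822). No 2i library reached an AA library in either gene. Krt19 averaged 116 TPM against 11.6 TPM (2.96 on the log2 scale), and Rab25, a small GTPase of epithelial recycling, 4.45 TPM against 0.17 TPM (4.28 ± 0.69). Cdh1 (E-cadherin) was called with the block only, with a difference of 0.63. Krt18 was called with the block only too, and its groups overlapped. Dsp, a desmosome protein, was higher with 2i at 24.0 TPM against 15.5 TPM, with the block only. For 7 of the 8 on the AA side DMSO was nearer to 2i, and for 7 of the 8 AA+2i was nearer to AA. Epcam averaged 87.7 TPM in DMSO and 163 TPM in AA+2i.

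Of 24 mesenchymal and fibroblast genes tested, 8 were higher with 2i and 4 with AA, together 50.0% beside 16.9% of all genes. The median difference was -0.80. Without the block the counts were 3 and 2, since Col3a1, Vim, Lox, Acta2 and Fbn1 on the 2i side and Col5a2 and Zeb1 on the AA side did not pass. Zeb2, a repressor of E-cadherin, was at 7.06, 4.09 and 3.02 TPM with 2i and at 0.54, 0.27 and 0.22 TPM with AA (-3.97 ± 0.21, adjusted p = 9.471e-06). Cdh2 (N-cadherin) was at 50.2, 37.3 and 28.3 TPM with 2i and at 22.9, 15.7 and 13.7 TPM with AA (-1.30 ± 0.15, adjusted p = 0.000479). S100a4 and Thy1 went the other way and were among the larger differences of the list. S100a4, a calcium-binding protein of motile cells, was at 278, 224 and 327 TPM with AA and at 43.0, 36.7 and 48.3 TPM with 2i (2.53 ± 0.15, adjusted p = 1.551e-05). Thy1, a surface marker that fibroblasts lose early in reprogramming, was at 6.69, 15.1 and 15.99 TPM with AA and at 1.23, 1.68 and 0.54 TPM with 2i (3.25 ± 0.51, adjusted p = 0.00197). The collagen markers of fibroblasts stayed low in both groups, with Col1a1 at 0.15 to 1.71 TPM and Col3a1 at 0.060 to 0.41 TPM. Snai1, Snai2, Twist1 and Fn1 did not pass. For 5 of the 8 on the 2i side DMSO was nearer to 2i, and for 5 of the 8 AA+2i was nearer to AA. For 4 of the 4 on the AA side DMSO was nearer to AA, and for 2 of them AA+2i was. Cdh2 averaged 41.7 TPM in DMSO and 17.2 TPM in AA+2i.

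Growth factor pathways were divided by member. Of 20 EGF and IGF genes 6 were higher with AA and 3 with 2i, with a median of 0.07, close to that of all genes. Igfbp3, which binds IGFs outside the cell, was at 44.7, 45.9 and 57.8 TPM with AA and at 15.95, 17.4 and 15.1 TPM with 2i (1.44 ± 0.15, adjusted p = 0.000266). Igfbp7 averaged 20.1 TPM with AA against 2.62 TPM with 2i (2.59 ± 0.37). Igf2, an imprinted growth factor, was higher with 2i, at 9.54, 7.29 and 24.5 TPM against 1.84, 1.77 and 4.0 TPM (-2.50 ± 0.22, adjusted p = 9.604e-05). The receptor Egfr was at 66.3, 38.1 and 21.1 TPM with AA and at 25.6, 18.3 and 12.1 TPM with 2i, so that AA replicate C lay below 2i replicate A. Within every letter AA was above 2i, and Egfr passed with the block (0.94 ± 0.16, adjusted p = 0.00291) and not without it (0.194, with 1.66e-05 to 0.761 over 23 settings). The ligands Areg (-0.03), Hbegf (-0.03) and Tgfa (0.46) did not pass.

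Among 18 TGF-beta and Nodal genes 6 were higher with AA and 2 with 2i, together 44.4% beside 16.9% of all genes. Their median was 0.19. Tgfbr2 is also a gene that the study picked from the same libraries. Tdgf1 (Cripto), the Nodal co-receptor, was at 392, 288 and 381 TPM with AA and at 33.4, 25.5 and 25.4 TPM with 2i (3.48 ± 0.24, adjusted p = 3.065e-05). Lefty2, a Nodal antagonist, averaged 1.76 TPM against 0.15 TPM (3.48 ± 0.41). Nodal itself did not differ detectably (-0.09). Tgfbr2, the type 2 receptor for TGF-beta, was at 41.1, 33.2 and 31.6 TPM with AA and at 17.8, 14.2 and 15.3 TPM with 2i (0.99 ± 0.12, adjusted p = 0.000515). Tgfbi, a matrix protein induced by TGF-beta, averaged 26.6 TPM against 2.59 TPM (3.16 ± 0.30).

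Glutathione transferases, which conjugate glutathione to reactive compounds, were higher with AA in 8 of 24 tested and with 2i in 2. Together that was 41.7% beside 16.9% of all genes, with a median of 0.50. The study reported this activity as enriched with AA in the same libraries, so the list is not independent evidence of its direction. The counts were 4 and 1 without the block, and 12 and 2 with the GC correction. That correction called 16.5% of all genes on the AA side and 13.4% on the 2i side. Gsta1 was at 226, 179 and 280 TPM with AA and at 15.0, 14.5 and 13.8 TPM with 2i (3.80 ± 0.24, adjusted p = 2.178e-05). Mgst1, a membrane-bound member, was on the 2i side at 231, 206 and 146 TPM against 118, 83.8 and 55.1 TPM (-1.37 ± 0.18, adjusted p = 0.000795). The treatments did not overlap in either gene. Near-identical copies in the Gsta, Gstm and Gstp clusters can trade reads, so values of single members are uncertain. The NRF2 targets, which include the enzymes of glutathione synthesis, did not follow the transferases. Of 21 tested 1 was higher with AA and 4 with 2i, together 23.8% beside 16.9% of all genes, with a median of -0.24. With the GC correction the counts were 1 and 8. The member on the AA side was Gpx2, a glutathione peroxidase, at 2.52, 5.40 and 10.3 TPM against 0.74, 0.54 and 0.50 TPM (3.04 ± 0.57). The 4 on the 2i side were Slc7a11, Gclc, Txnrd1 and Abcc1, none of which passed without the block, while Nqo1 (-0.18), Hmox1 (-0.19) and Gclm (-0.32) did not pass.

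Of 31 ascorbate-dependent dioxygenases tested, 4 (12.9%) were higher with AA, beside 9.84% of all genes, and none with 2i. The count was 2 without the block and 10 with the GC correction, which called 16.5% of all genes on the AA side, and the median difference was 0.20. Tet1 was at 65.6, 31.7 and 24.5 TPM with AA and at 16.8, 10.6 and 5.30 TPM with 2i (1.77 ± 0.17, adjusted p = 0.000171). Egln3, a prolyl hydroxylase that senses oxygen, averaged 159 TPM against 45.8 TPM (1.68 ± 0.31). Kdm3b, an H3K9 demethylase, was at 61.3, 60.6 and 45.5 TPM against 40.2, 35.6 and 28.4 TPM, a difference of 0.53 ± 0.11 (adjusted p = 0.0104) that did not pass without the block (0.104, with 0.000271 to 0.708 over 23 settings). Tet2 had a difference of 0.55 ± 0.13 and overlapping groups, and passed with the block only. For 4 of the 4 DMSO was nearer to AA and AA+2i was nearer to 2i, the placement seen for the ERK genes. Tet3 (0.25), Kdm3a (0.15) and the collagen hydroxylases P4ha1 (0.14) and P4ha2 (0.16) did not pass.

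Of 16 DNA and H3K9 methylation genes 2 were higher with AA and 1 with 2i, together 18.8% beside 16.9% of all genes. Dnmt3b, a de novo DNA methyltransferase, was at 17.6, 18.3 and 44.9 TPM with AA and at 6.86, 7.58 and 10.3 TPM with 2i (1.45 ± 0.22, adjusted p = 0.00173). Dnmt3a was at 22.1, 25.5 and 21.6 TPM against 13.2, 11.3 and 10.2 TPM (0.77 ± 0.15, adjusted p = 0.00746). Uhrf2, a reader of modified cytosine, was higher with 2i, at a mean of 46.8 TPM against 26.5 TPM (-1.03 ± 0.21). Dnmt1 (0.13), Ehmt2 (-0.27) and Setdb1 (0.18) did not pass. Mbd3 was at 7.39, 117 and 154 TPM with AA and at 47.0, 109 and 159 TPM with 2i, and did not pass (-0.72, adjusted p = 0.624). Its low value in AA replicate A goes with that library's low reading of GC-rich genes, where the fitted deviation at 60% GC was -1.49 on the log2 scale against -0.55 in 2i replicate A, and the part of this in the gene's value was not tested.

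Of 12 G1 cyclins and CDK inhibitors 1 was higher with AA and 2 with 2i. Over all genes 16.9% were called in either direction, and this short list was not tested against that share. Ccne1 (cyclin E1) was higher with AA at 91.8 TPM against 52.0 TPM (0.66 ± 0.14). Ccnd2 (cyclin D2) was higher with 2i at 148 TPM against 78.6 TPM (-1.09 ± 0.17), as was Cdkn1a (p21) at 434 TPM against 296 TPM with the block only. Glycolysis and hypoxia genes had 2 of 21 higher with AA and 1 with 2i (14.3%), near the 16.9% of all genes. Ndrg1, a stress-induced gene, was at 331, 346 and 310 TPM with AA and at 116, 113 and 71.4 TPM with 2i (1.57 ± 0.22, adjusted p = 0.0011). The glycolytic enzymes Gapdh (-0.57), Ldha (-0.52) and Pgk1 (-0.21) did not pass. Of 17 cholesterol synthesis genes, Insig1 alone passed, with the block, higher with AA at 68.3 TPM against 36.1 TPM. With the GC correction 7 of the 17 were higher with AA and none with 2i, where that setting called 16.5% of all genes on the AA side. In the fit reported, 15 of 17 differences were above 0, beside 6322 of 13400 over all genes.

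Of 8 piRNA and meiosis genes tested 2 were higher with AA and 1 with 2i, and the other 19 listed had too few counts to test. Piwil2, a PIWI protein that guides piRNAs in the male germ line, was at 13.8, 10.8 and 9.05 TPM with AA and at 0.16, 0.18 and 0.21 TPM with 2i (5.77 ± 0.27, adjusted p = 7.049e-06). In AA+2i it averaged 0.77 TPM, below the 1.48 TPM of DMSO, so the high level was found with AA given alone. Tdrd9, a helicase of the same pathway, was called on the 2i side at no more than 20 counts in a library. Primitive endoderm genes had 1 of 8 higher with AA (Lamb1, a laminin chain, 41.9 TPM against 8.41 TPM, 2.15 ± 0.22) and 1 with 2i (Dab2, with the block only). Trophoblast genes had 2 of 9 higher with AA (22.2%), Hand1 and Plet1 (listed as 1600029D21Rik). Their means with AA were at most 2.89 TPM, and Hand1 passed with the block only. The share of all genes called in either direction was 16.9%. The piRNA, primitive endoderm and trophoblast lists are short and were not tested against it.

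A further choice took genes with a mean of at least 5 TPM in the higher group and with groups that did not overlap. They also had the same direction in all letters and passed with and without the block. From 440 such genes on the AA side and 196 on the 2i side, the 12 with the largest differences were taken. Some of these 12 are members of the lists above. On the AA side the 12 were Clec4a3, Sult1c1, Ctxn3, Sectm1a, Upk1b, Dmrtc1b, Dppa2, Tac2, Rhox6, Dppa5a, Piwil2 and Otx2. Clec4a3, a C-type lectin receptor gene, had 64 to 119 counts in the AA libraries and 0 in all 2i libraries, which puts it at least 56.4-fold higher with AA against a floor of 3 counts over the 2i group. Otx2, the homeobox factor of the primed epiblast, was at 58.6, 55.8 and 91.9 TPM with AA and at 1.07, 1.26 and 1.98 TPM with 2i (5.42 ± 0.22, adjusted p = 4.767e-06). It averaged 5.57 TPM in DMSO and 14.1 TPM in AA+2i. The X-linked homeobox gene Rhox6 was at 36.4, 99.4 and 169 TPM against 1.01, 1.13 and 1.86 TPM (5.92 ± 0.50). Dmrtc1b, also X-linked, was at 55.1, 69.8 and 113 TPM against 1.00, 0.35 and 1.33 TPM (6.39 ± 0.55). Tac2, the neurokinin B precursor, was at 42.0, 56.6 and 31.1 TPM against 0.45, 0.75 and 0.48 TPM (6.07 ± 0.24, adjusted p = 4.767e-06). Unlike Otx2, Tac2 was high in DMSO, at 63.9 TPM, and it was at 0.25 TPM in AA+2i. Upk1b, a urothelial tetraspanin, averaged 6.48 TPM in DMSO and 21 TPM with AA, and was at 0.22 TPM with 2i and 0.23 TPM with AA+2i.

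On the 2i side the 12 genes were Tnfrsf19, Ccl2, Plagl1, Axin2, Crct1, Omd, Pde3a, Zfp711, Fabp3, Cxx1c, Ptgds and Wnt8a. Omd (osteomodulin), a matrix proteoglycan, was at 151, 147 and 70.7 TPM with 2i and at 2.74, 6.61 and 8.13 TPM with AA (-4.50 ± 0.52, adjusted p = 0.000406). Its DMSO mean was 89.4 TPM and its AA+2i mean 84.1 TPM, so that AA alone was the low condition. Plagl1, an imprinted zinc-finger gene, was at 14.8, 9.51 and 15.1 TPM with 2i and at 0.53, 0.30 and 0.68 TPM with AA (-4.90 ± 0.26, adjusted p = 9.471e-06). It averaged 2.37 TPM in DMSO and 4.22 TPM in AA+2i. Ccl2, a monocyte chemokine, was at 4.50, 5.30 and 13.0 TPM against 0.41, 0.14 and 0.31 TPM (-4.93 ± 0.40). Fabp3, a fatty acid carrier, was at 13.1, 18.9 and 61.5 TPM against 1.74, 1.97 and 3.22 TPM (-3.63 ± 0.37). As for Axin2, the letter C library was the highest of the 2i values in Tnfrsf19, Ccl2, Plagl1, Crct1, Fabp3, Cxx1c, Ptgds and Wnt8a. That library was the lowest of the 2i values in Omd, Pde3a and Zfp711.

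Over the called genes, DMSO was more often nearer to AA, and AA+2i more often nearer to 2i. The share was closest to even for DMSO among the genes higher with 2i. Among the 1319 genes higher with AA, DMSO was nearer to AA in 926 (70.2%), and AA+2i was nearer to 2i in 936 (71.0%). Their median level was 3.22 in AA, 2.70 in DMSO, 2.23 in AA+2i and 1.54 in 2i, on the log2(TPM + 0.1) scale. Among the 945 genes higher with 2i, DMSO was nearer to AA in 535 (56.6%), and AA+2i was nearer to 2i in 613 (64.9%). Their medians were 1.33 in AA, 1.92 in DMSO, 2.21 in AA+2i and 2.63 in 2i. By single letters the share with AA+2i nearer to 2i ran from 59.4% to 76.0% for the first set and from 56.5% to 72.5% for the second. The share with DMSO nearer to AA ran from 57.3% to 77.5% for the first set and, for the second, from 42.4% in letter B to 68.0% in letter A, so that in letter B the order was turned. The calls were made between AA and 2i. DMSO and AA+2i entered them through the shared estimate of the spread and of the letter effects, the scaling factors and the count filter. A gene could thus be tested because of its counts in DMSO or AA+2i.

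**Figure D4:**
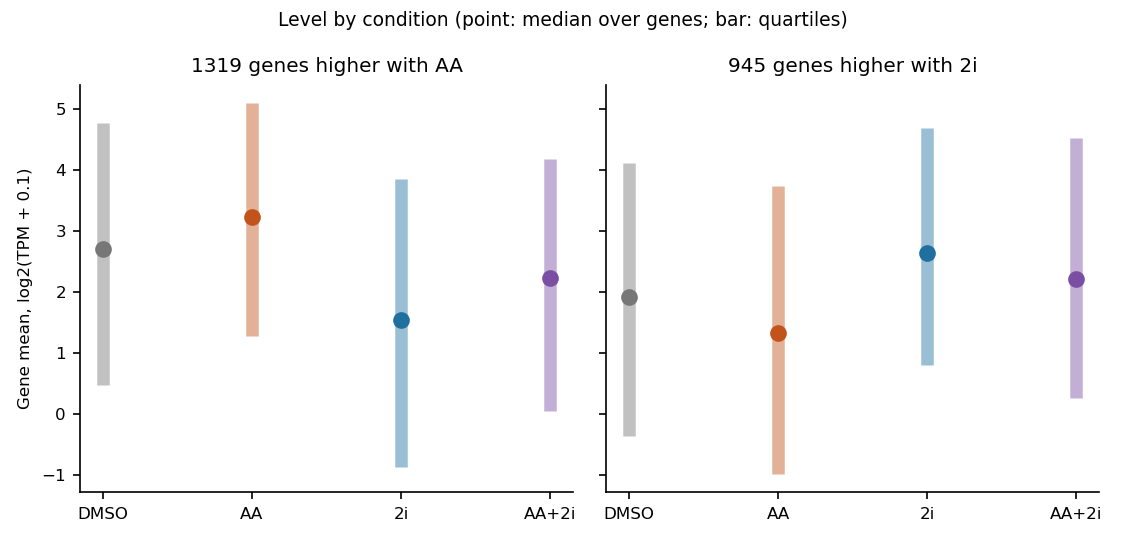
Level of the called genes in the 4 conditions (x axis), as log2 of TPM plus 0.1 averaged over 3 libraries (y axis), with the median over genes as a point and the quartiles as a bar. For the 1319 genes higher with AA the medians fall from AA (3.22) through DMSO (2.70) and AA+2i (2.23) to 2i (1.54), and for the 945 genes higher with 2i they rise from AA (1.33) to 2i (2.63).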

How the data were processed

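RNA from pre-iPSCs was made into unstranded TruSeq libraries and sequenced single-end. After trimming and quality filtering, reads were aligned to RefSeq genes of mm9 (Bowtie in the submitters' processing notes, Bowtie2 in the study's methods) and quantified with RSEM 1.2.4. The deposited files hold, for each library, the authors' expected counts, TPM and FPKM per gene. Expected counts were rounded to whole numbers for the tests. TPM gave the printed levels. FPKM served only to restore 1 malformed TPM value (0610011F06Rik in AA replicate C).

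The 13400 of 20325 genes that reached 10 counts in 3 or more libraries were tested with edgeR 4.0.16 (R 4.3.3), quasi-likelihood, RLE factors, all 12 libraries, condition plus letter, with Benjamini-Hochberg adjustment over all genes and a threshold of 0.05. AA minus 2i was the contrast, with 6 residual degrees of freedom. Each SE printed is the size of the log2 difference divided by the square root of its F statistic. Where a group had few or no counts, it can make a difference look more precise than the counts allow. The block follows the replicate letters in the titles, which do not say what a letter shares. As a check, same-letter AA and 2i libraries deviated together (r = 0.835, 0.241 and 0.793 for letters A, B and C), though AA replicate B correlated more with 2i replicate C (0.521), and the 18 same-letter pairs of all 4 conditions ran from -0.588 to 0.894. The 6 libraries differed from each other in at least 15115 genes' counts.

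The samples, the 19 gene lists and the tests were chosen with earlier results of these data known. Named genes were the 12 largest differences on each side (at least 5 TPM in the higher group, groups apart, same direction in all letters, passing with and without the block), the 4 smallest adjusted p of each list, and genes the study names. Other members are named where a count is spelled out. Alternatives were no block, TMM factors, DESeq2 1.42.0, limma 3.58.1 on log2(TPM + 1) or log2(TPM + 0.1), other filters, the 6 libraries alone, a GC correction, and leaving out libraries. Positions (mm9) come from GENCODE gene models. The scripts were tested on simulated data. Hmgcs1 was not analysed here.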

Additional observations from a re-analysis of the deposited data

How the results depend on the processing

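Genes higher with AA and with 2i numbered 788 and 478 without the letter block, 1396 and 922 with TMM factors, 1428 and 1056 with DESeq2, and 2215 and 1800 with a GC correction beside the block. limma gave 1609 and 614 on log2(TPM + 1) and 1621 and 611 on log2(TPM + 0.1), a split further to AA, on scales where the median difference of all genes was 0.104 and 0.121, beside -0.029 in the fit reported. The 6 libraries alone gave 1595 and 1346 with the block and 552 and 324 without it. Requiring 10 counts in every library gave 944 and 673, and no filter 1287 and 919. GC correction without the block gave 1511 and 1060. Leaving out a library or a letter gave 282 to 992 on the AA side and 200 to 657 on the 2i side. With no block and one letter left out, a setting chosen after seeing the data, counts were 619 and 321 (A), 49 and 23 (B) and 228 and 169 (C). Of 108 named genes tested 90 were called, of which 20 lost the call without the block and 1 (Ddit4) with the GC correction. Nr0b1, which is outside these 108, lost it in both settings. Dppa5a, Dusp6, Gsta1, Lamb1, Ooep, Otx2, Plagl1 and Tdgf1 passed under all 23 alternatives. The uncalled factors changed sign. Klf4 was at 0.046 without letter A, 0.002 without AA replicate A and 0.079 without the block and letter C, with -0.778 to 0.046 over the left-out libraries. Pou5f1 was at 0.033 with limma (both pseudocounts), 0.089 and 0.066 with the GC correction with and without the block, and 0.204 without the block and letter A, with -0.353 to 0.209 over the left-out libraries. Sox2 was at 0.233 and 0.259 with limma, 0.058 in the 6 libraries with the block and 0.342 without the block and letter C, with -0.512 to 0.763 over the left-out libraries. The cause of these changes was not tested. Of the 3350 genes with the lowest mean TPM (up to 4.42) 31.4% were called, and of the 3350 with the highest (from 51.2) 8.4%.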

Other observations

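Families of at least 4 tested genes in which at least 70% were called in 1 direction were looked for by symbol, after the values had been seen. They are given as values with no test of the family. This rule makes the counts below high by itself, and the number of families searched is not given here. Over all genes 9.84% were higher with AA and 7.05% with 2i. The guanylate-binding proteins, interferon-inducible GTPases, were higher with AA in 7 of 7 tested, of which 4 passed without the letter block. Gbp4 was at 55.7, 36.2 and 59.7 TPM with AA and at 6.66, 5.44 and 6.12 TPM with 2i (2.88 ± 0.18). Its mean was 58.7 TPM in DMSO and 8.04 TPM in AA+2i, close to AA and to 2i in turn. Gbp2 averaged 43.5 TPM against 17.1 TPM, with 30.1 TPM in DMSO and 29.0 TPM in AA+2i.

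The kallikreins, serine proteases clustered on chromosome 7, were higher with AA in 10 of 13 tested, 9 of them also without the block. Klk1 was at 768, 1063 and 1341 TPM with AA and at 170, 179 and 110 TPM with 2i (2.58 ± 0.28), with 880.0 TPM in DMSO and 231 TPM in AA+2i. Klk1b22 averaged 228 TPM against 63.9 TPM. The Klk1 copies are near-identical and can trade reads, so single members are uncertain.

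Carboxylesterases of chromosome 8 were the one such family on the 2i side, with 4 of 4 called with and without the block. Ces2g was at 7.23, 7.73 and 6.95 TPM with 2i and at 2.55, 2.13 and 2.23 TPM with AA (-1.83 ± 0.21), and Ces1d, Ces1f and Ces2e stayed at or below 1.69 TPM in all 6 libraries. The aldehyde oxidases of chromosome 1 were higher with AA in 3 of 4, of which 1 passed without the block, namely Aox4 at 8.80, 6.24 and 6.54 TPM against 1.17, 1.01 and 0.71 TPM (2.74 ± 0.27). The Raet1 genes, ligands of an activating receptor of natural killer cells, met the rule with 3 of 4 higher with AA, and the Dppa genes described above with 4 of 5.

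The largest fitted difference of all was Amd1, a polyamine synthesis enzyme, at 11.61 ± 3.20, with overlapping groups, and without the block it did not pass (adjusted p = 0.13, edgeR).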
